A study of Danio rerio with 340 samples.

Results

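Neutrophils and macrophages of the zebrafish larva were followed through 6 marker genes, lyz, mpx, npsn, lcp1, coro1a and mpeg1.1, which were taken by gene symbol from a table of 31658 genes and were all found in it. They were read in 340 single whole larvae at 5 days post-fertilisation (dpf) that came from 3 exposure experiments, each with its own untreated larvae. Valproic acid was given at 1, 5 and 20 µM, beside 0 µM, to the strains AB, TU, RW, WIK and PET, with 8 larvae for each strain and dose. Hydroxyurea was given at 1.3, 6.6 and 33 mM, beside 0 mM, in 104 larvae of AB, TU, RW and PET (4 to 7 per group), and warfarin at 150 and 300 µM, beside 0 µM, in 76 larvae of the same 4 strains (5 to 7 per group). PET fish were bought at a pet store, whereas the other strains are kept in stock centres. Exposure ran from 5 to 6 h post-fertilisation (hpf) until 5 dpf. The compounds were dissolved in dimethyl sulfoxide or water, and whether the larvae at 0 received the solvent is not given in the sources used here. The larvae of a strain and dose shared 1 exposure, so strain and clutch cannot be told apart and p-values measure the spread between larvae of that exposure.

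Larvae of this age rely on innate immunity, since lymphocytes that recognise antigen mature later. Neutrophils are short-lived cells filled with granules of antimicrobial proteins, and they move quickly to damaged or infected tissue. Macrophages, which include the microglia of the brain, take up dying cells and microbes. In zebrafish, lyz (lysozyme, which breaks bacterial cell walls), mpx (myeloid-specific peroxidase, a granule enzyme) and npsn (nephrosin, a secreted metalloprotease) mark neutrophils. The genes lcp1 (L-plastin, an actin-bundling protein) and coro1a (coronin 1A, which binds actin) are expressed in leukocytes of several kinds. The gene mpeg1.1 encodes a pore-forming protein of the perforin family and marks macrophages.

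The libraries held 124136 to 14186334 counts per larva, with a median of 2272278. Levels are given as counts per 1000000 counts of the library (CPM) after TMM scaling, which corrects for differences in composition. The scaling was done within each experiment, so levels of different experiments are on separate scales. The reads came from the 3′ end of transcripts and were not set against gene length, so levels of different genes are not compared. A count of 0 allows up to 3 counts, which is 1.32 CPM at the median depth and 24.2 CPM in the shallowest library, and it covers counting error only. No larva lacked lyz or npsn counts, whereas 28 larvae had no count of mpx, 31 none of mpeg1.1, 17 none of coro1a and 8 none of lcp1. The muscle, skin, liver, neural and pancreatic genes used as a check of whole larvae summed to between 5508 and 30097 CPM per larva at 0 and at the highest doses. The sum of 9 lymphoid genes had medians of 14.8 CPM at 20 µM of valproic acid, 4.21 CPM at 33 mM of hydroxyurea and 4.02 CPM at 300 µM of warfarin. Of these genes 3 had enough counts to be tested in the valproic acid experiment and none in the other experiments.

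Changes were tested with edgeR's quasi-likelihood test, a gene being called at an adjusted p (Benjamini-Hochberg over all genes tested) under 0.05. Whether hydroxyurea, an inhibitor of ribonucleotide reductase that blocks DNA synthesis, changed the leukocyte markers was read from each dose against 0 mM with strain in the model. At 33 mM 4 of the 6 markers rose and none fell, and at 1.3 and 6.6 mM none was called. Of all 15042 genes tested, 22.8% were called at 33 mM (10.3% higher), 1.15% at 6.6 mM and 0.00665% at 1.3 mM. The 4 that rose were lyz (2.66-fold), mpx (2.34-fold), lcp1 (1.96-fold) and coro1a (1.71-fold). For npsn (1.28-fold) and mpeg1.1 (1.15-fold) the change did not pass the test. The median log2 fold change of the 6 markers was 0.87, beside 0.02 for all genes tested. In RNA of whole larvae, more cells of a type and more RNA per cell cannot be told apart.

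The clearest difference was in lyz. Its lowest, median and highest levels were 63.1, 198 and 404 CPM in the 26 larvae at 33 mM, against 36.3, 80.0 and 152 CPM in the 24 larvae at 0 mM. All 26 exposed larvae lay above the median of the untreated larvae of their strain, and 23 lay above every one of those. On the log2 scale the difference was 1.41 (SE 0.14, adjusted p = 1.37e-15). In PET the 5 larvae at 33 mM had 196, 214, 274, 366 and 404 CPM, against 45.3 to 152 CPM (median 103) in 7 larvae at 0 mM. In TU the 7 larvae at 33 mM ranged over 165 to 303 CPM (median 232), against 80.9 to 123 CPM (median 92.9) in 6 larvae at 0 mM. The exposed and untreated groups of these strains did not overlap. In AB they overlapped through 1 exposed larva, with 63.1 to 319 CPM (median 148) at 33 mM, against 36.3 to 95.7 CPM (median 54.6) at 0 mM. In RW 2 exposed larvae lay within the untreated range: the 7 larvae at 33 mM had 74.7 to 277 CPM (median 174), against 51.3, 60.5, 76.1 and 91.7 CPM in the 4 larvae at 0 mM.

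Taken strain by strain, lyz rose in each of the 4 strains at 33 mM. The log2 fold change was 1.60 (SE 0.26, adjusted p = 9.30e-07) in PET, 1.57 (SE 0.26, adjusted p = 3.10e-06) in AB, 1.24 (SE 0.30, adjusted p = 0.00256) in RW and 1.22 (SE 0.25, adjusted p = 3.09e-04) in TU. Within strains, 9.42% of genes were called in PET, 7.24% in AB, 6.13% in RW and 6% in TU. The strain by dose interaction, which takes all doses together, had an adjusted p of 0.239 for lyz, in a test in which 2.82% of all genes were called. Whether the 4 changes at 33 mM alone differed was not tested. Along the doses lyz averaged 81.3, 69.7, 95.6 and 210 CPM at 0, 1.3, 6.6 and 33 mM (SD 30.2, 27.8, 47.8 and 84.1). Only the step into the highest dose passed the test, at a log2 fold change of 1.19 (SE 0.13, adjusted p = 6.89e-13) for 33 against 6.6 mM, where 18.2% of genes were called. The step between 1.3 and 6.6 mM was 0.41 on the log2 scale with an adjusted p of 0.337, where 0.173% of genes were called. Within strains no marker was called at 1.3 mM, where 0.0348% of genes were called in AB, 0.0812% in PET, 0.0232% in RW and 0.435% in TU, or at 6.6 mM, where it was 1.03% in AB, 0.725% in PET, 0.058% in RW and 0.0754% in TU.

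**Figure D1:**
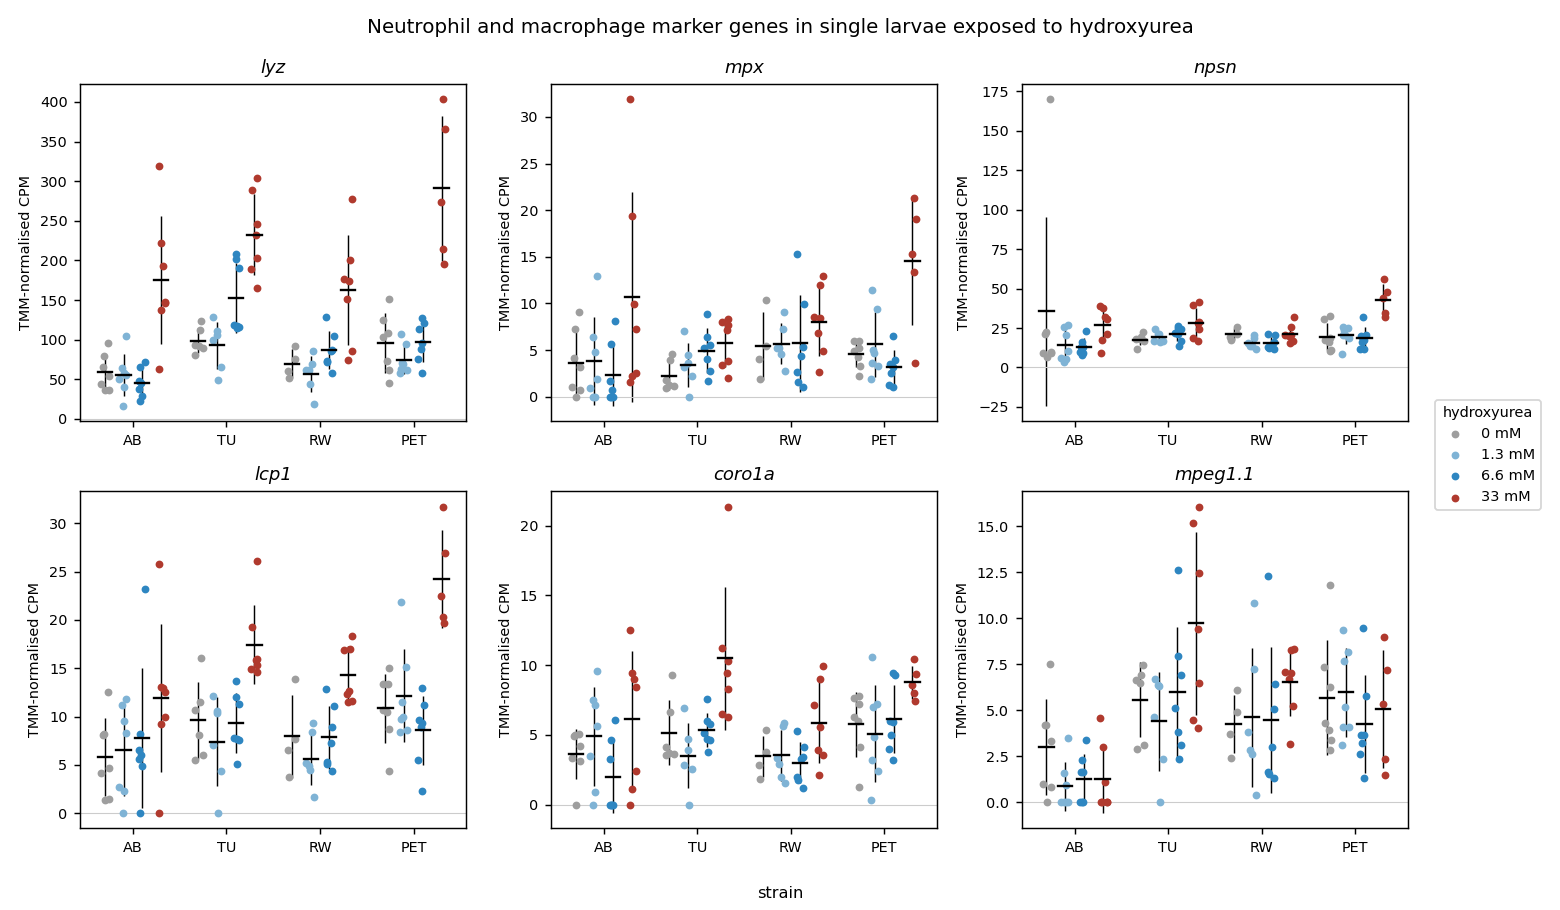
TMM-normalised CPM of the 6 marker genes (vertical axes, 1 panel per gene) in single larvae of 4 strains, with the doses of hydroxyurea from 0 to 33 mM side by side within each strain. Points are larvae, bars the group mean and lines ± SD. The 33 mM points of lyz stand above all untreated points of the strain in 23 of 26 larvae. Those of mpeg1.1 do so in 9 of 26 larvae, 5 of 7 in RW and 4 of 7 in TU. They stay within the untreated range in AB, and no PET point exceeds it. For npsn, 1 untreated AB larva stands at 170 CPM.

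The peroxidase gene mpx rose at 33 mM as well, with a wider spread. Levels were 1.53 CPM at the lowest, 7.86 CPM at the median and 31.9 CPM at the highest in the 26 larvae at 33 mM, against 0, 3.98 and 10.4 CPM in the 24 larvae at 0 mM. The groups overlapped broadly, and 13 exposed larvae lay above every untreated larva of their strain. This was a log2 fold change of 1.22 (SE 0.29, adjusted p = 4.16e-04). In PET, the strain in which mpx was called on its own (log2 fold change 1.66, SE 0.53, adjusted p = 0.0268), the larvae at 33 mM had 3.63, 13.4, 15.3, 19.1 and 21.3 CPM, against at most 6.02 CPM (median 4.92) at 0 mM. Without PET larva 1 or 5 at 33 mM the adjusted p in PET was 0.0727 and 0.0900. In the other strains the change lay between 0.48 in RW and 1.43 in AB, with adjusted p between 0.119 and 0.755. Counts of mpx were low, at a median of 13 at 33 mM and of 9.5 at 0 mM per larva.

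The third neutrophil gene, npsn, gave a smaller difference against 0 mM than the other neutrophil markers. It had 8.99, 28.4 and 56.1 CPM as lowest, median and highest values in the larvae at 33 mM, against 6.61, 18.0 and 170 CPM in those at 0 mM. The value of 170 CPM belonged to 1 untreated AB larva, in which 169 of 1027375 counts were npsn. The other AB larvae at 0 mM had 6.61 to 22.6 CPM. The same larva had 95.7 CPM of lyz, the highest of its group, and 1.01 CPM of mpx. With all larvae the log2 fold change was 0.36 (SE 0.19, adjusted p = 0.174). Without that larva it was 0.74 (adjusted p = 1.30e-05), and 5 of the 6 markers rose. Without PET, with that AB larva kept, it was 0.07 (adjusted p = 0.893). The mean of 33 mM against 6.6 mM was 28.9 ± 11.5 against 17.1 ± 5.86 CPM (SD, n = 26 and 28), a log2 fold change of 0.70 (SE 0.18, adjusted p = 0.00189), and without PET this call was lost (0.55, adjusted p = 0.0803). Within strains npsn rose in PET, with 32.1, 34.4, 44.3, 48.1 and 56.1 CPM at 33 mM against 10.7 to 32.5 CPM at 0 mM (log2 fold change 1.13, SE 0.35, adjusted p = 0.0203, or 0.0718 without PET larva 5). It was not called in TU (0.66), RW (0.06) or AB (-0.38). Of 7 larvae each at 33 mM, 5 in TU and 1 in RW lay above every untreated larva of their strain, and 2 in RW lay below. In AB no exposed larva exceeded the highest untreated one, which was the larva at 170 CPM. The AB estimate includes that larva, and an AB value without it is not given here. As a description, the log2 ratio of lyz to npsn counts within a larva, each with 0.5 added, was compared. Its median was 2.90 at 33 mM against 2.24 at 0 mM.

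Both actin-binding genes of leukocytes rose at 33 mM. For lcp1 the lowest, median and highest values were 0, 15.6 and 31.7 CPM at 33 mM, against 1.40, 8.14 and 16.1 CPM at 0 mM, and the log2 fold change was 0.97 (SE 0.19, adjusted p = 1.32e-05). All but 1 of the 26 exposed larvae exceeded the untreated median of their strain, and 13 exceeded every untreated larva. The exception, an AB larva without an lcp1 count, came from a library of 650615 counts. In PET the 5 exposed larvae had 19.7, 20.3, 22.5, 26.9 and 31.7 CPM, all above the 4.33 to 15.0 CPM of the 7 untreated larvae (log2 fold change 1.16, adjusted p = 0.0215). Without PET larva 1 or 2 at 33 mM that adjusted p was 0.0512 and 0.0766. The other strains had log2 fold changes of 0.98 (AB), 0.86 (TU) and 0.83 (RW), none of which passed the test within the strain.

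For coro1a the levels at 33 mM ran over 0, 8.34 and 21.4 CPM (lowest, median, highest), against 0, 4.16 and 9.29 CPM at 0 mM. The log2 fold change was 0.77 (SE 0.24, adjusted p = 0.00888), and 16 of 26 exposed larvae lay above every untreated larva of their strain, 4 in each strain. The estimates within strains were alike in sign, at 0.98 in TU, 0.71 in RW, 0.65 in AB and 0.61 in PET, and none was called alone. Without TU the value over strains was 0.68 with an adjusted p of 0.117. The strain by dose interaction was not called for lcp1 (adjusted p = 0.934) or coro1a (adjusted p = 0.942).

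The macrophage gene mpeg1.1 was the one marker called in no hydroxyurea comparison. Its lowest, median and highest values were 0, 5.29 and 16.1 CPM at 33 mM, against 0, 4.19 and 11.8 CPM at 0 mM, a log2 fold change of 0.20 (SE 0.27, 95% interval -0.34 to 0.74, adjusted p = 0.678). The interval reaches 0.74 on the log2 scale, so the marker cannot be called unchanged. Of 26 larvae at 33 mM, 9 lay above every untreated larva of their strain, 5 of 7 in RW and 4 of 7 in TU. In PET 2 of 5 lay below every untreated larva. In AB 4 of 7 larvae at 33 mM had no mpeg1.1 count, against 1 of 7 at 0 mM, where total counts were 650615 to 1263588 at 33 mM and 570077 to 2127892 at 0 mM. The strains' estimates were -1.28 in AB, -0.16 in PET, 0.62 in RW and 0.79 in TU, with an interaction at an adjusted p of 0.682. Within larvae the log2 ratio of lyz to mpeg1.1 had a median of 5.22 at 33 mM against 4.25 at 0 mM.

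Counted within larvae, at 33 mM 10 of 26 larvae had all 6 markers above the untreated median of their strain, and a median of 5 markers lay above it. At 6.6 mM 1 of 28 larvae and at 1.3 mM none of 26 had all 6 above, with a median of 3 markers at both doses. These counts are a description, with no test, and use the same values as the tests above.

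**Figure D2:**
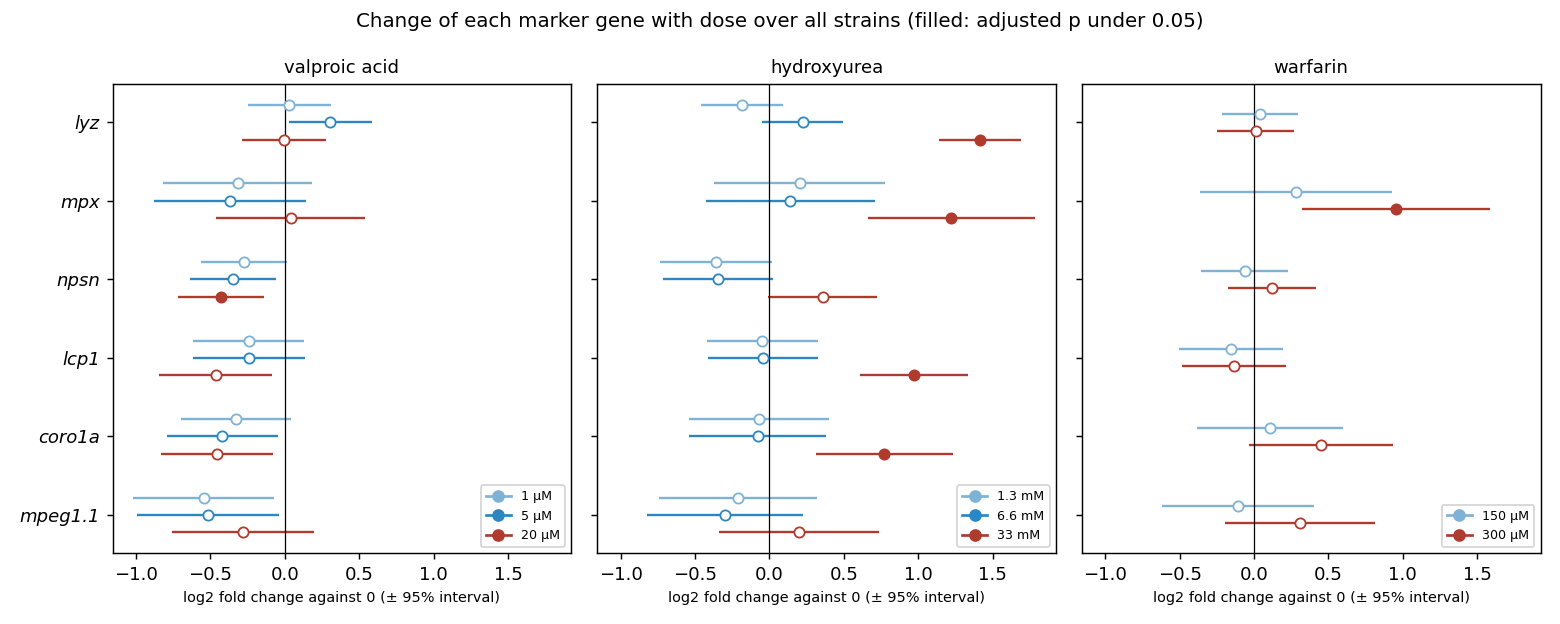
Log2 fold change of each marker gene against 0 (horizontal axes, with 95% intervals) for each dose of valproic acid, hydroxyurea and warfarin, fitted over strains; filled points passed an adjusted p of 0.05. The filled points are lyz, mpx, lcp1 and coro1a at 33 mM of hydroxyurea, npsn at 20 µM of valproic acid and mpx at 300 µM of warfarin.

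Other myeloid genes were read at 33 mM of hydroxyurea in lists of cell types. Only part of these genes was found in the data with enough counts to be tested. These lists were chosen with earlier results of these data known, so their counts are a description and no support for the marker changes. At this dose 10.3% of all genes tested were higher and 12.5% lower. Of 16 other neutrophil genes 10 were tested, 4 rose and none fell, with a median log2 fold change of 0.41. The gelatinase mmp9 rose by 1.05 (SE 0.27, adjusted p = 0.00155) and the granule proteoglycan gene srgn by 0.75 (SE 0.12, adjusted p = 1.29e-07) on the log2 scale. The chemotaxis-linked lect2l averaged 65.6 ± 25.7 CPM at 33 mM and 56.3 ± 24.2 CPM at 0 mM (adjusted p = 0.439). Of the phagocyte NADPH oxidase, the enzyme complex of the oxidative burst, 1 of 6 subunit genes rose, cyba, at 29.3 ± 9.50 CPM at 33 mM and 17.4 ± 6.12 CPM at 0 mM. Among 12 tested of 15 myeloid transcription factors and colony-stimulating factors 3 rose, among them spi1b, an ortholog of the myeloid regulator PU.1 (0.98, adjusted p = 6.79e-04), and il34, a ligand of the macrophage growth factor receptor (1.14, adjusted p = 0.0162).

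The macrophage list held genes of both directions. Of 23 genes named 21 were found in the data and 12 were tested. Of these 4 rose and 2 fell, with a median log2 fold change of 0.57. Over all genes tested 10.3% were higher and 12.5% lower, and the part of the list that fell was near that share. The cathepsin gene ctss2.1 averaged 13.9 ± 6.95 CPM at 33 mM and 4.36 ± 2.83 CPM at 0 mM (log2 fold change 1.70, adjusted p = 6.76e-09), and havcr1 averaged 12.8 ± 5.86 and 4.95 ± 2.75 CPM at these doses (1.36, adjusted p = 1.05e-07). In the other direction the granulin gene grn1 averaged 20.9 ± 8.67 CPM at 33 mM and 38.2 ± 9.40 CPM at 0 mM (-0.89, adjusted p = 7.81e-08), and slc7a7, an amino acid transporter needed by microglia in zebrafish, stood at a log2 fold change of -0.36 (adjusted p = 0.0427). Of 17 further pan-leukocyte genes 15 were found in the data and 8 were tested. Of these 3 rose, laptm5 by 0.70, hcls1 by 0.61 and arhgdig by 0.29 on the log2 scale. The small GTPase gene rac2 stood at 0.25 (adjusted p = 0.0648). Several of these genes, such as srgn, arhgdig and rac2, are also expressed outside leukocytes.

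Some genes of other tissues moved at the same dose, at which 10.3% of all genes tested were higher and 12.5% lower. Of 7 larval tissue genes tested 1 rose and 1 fell, with a median log2 fold change of 0.02, as for all genes. The liver gene fabp10a averaged 270 ± 121 CPM at 33 mM and 634 ± 135 CPM at 0 mM (log2 fold change -1.24, adjusted p = 2.62e-12), and the skin keratin krt4 rose by 0.30 on the log2 scale (adjusted p = 0.00141). The embryonic globin hbbe3 averaged 13.3 ± 11.9 CPM at 33 mM and 0.764 ± 2.08 CPM at 0 mM, and among 8 tested of 9 erythroid genes 2 rose and 1 fell. The carboxypeptidase gene cpa5, a mast cell marker that the exocrine pancreas also expresses, averaged 123 ± 72.2 and 563 ± 162 CPM at these doses. Of 11 inflammation genes 7 were tested and 3 rose, led by the chemokine gene cxcl18b (1.98, adjusted p = 1.46e-07) and including mmp9 above. The median library held 1825796 counts at 33 mM and 2698895.5 counts at 0 mM. The part of tissue makeup and inflammation in the leukocyte markers was not tested. With total count as a covariate the same number of markers, 4, was called, and lyz stood at 1.43 on the log2 scale (adjusted p = 6.09e-15).

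**Figure D3:**
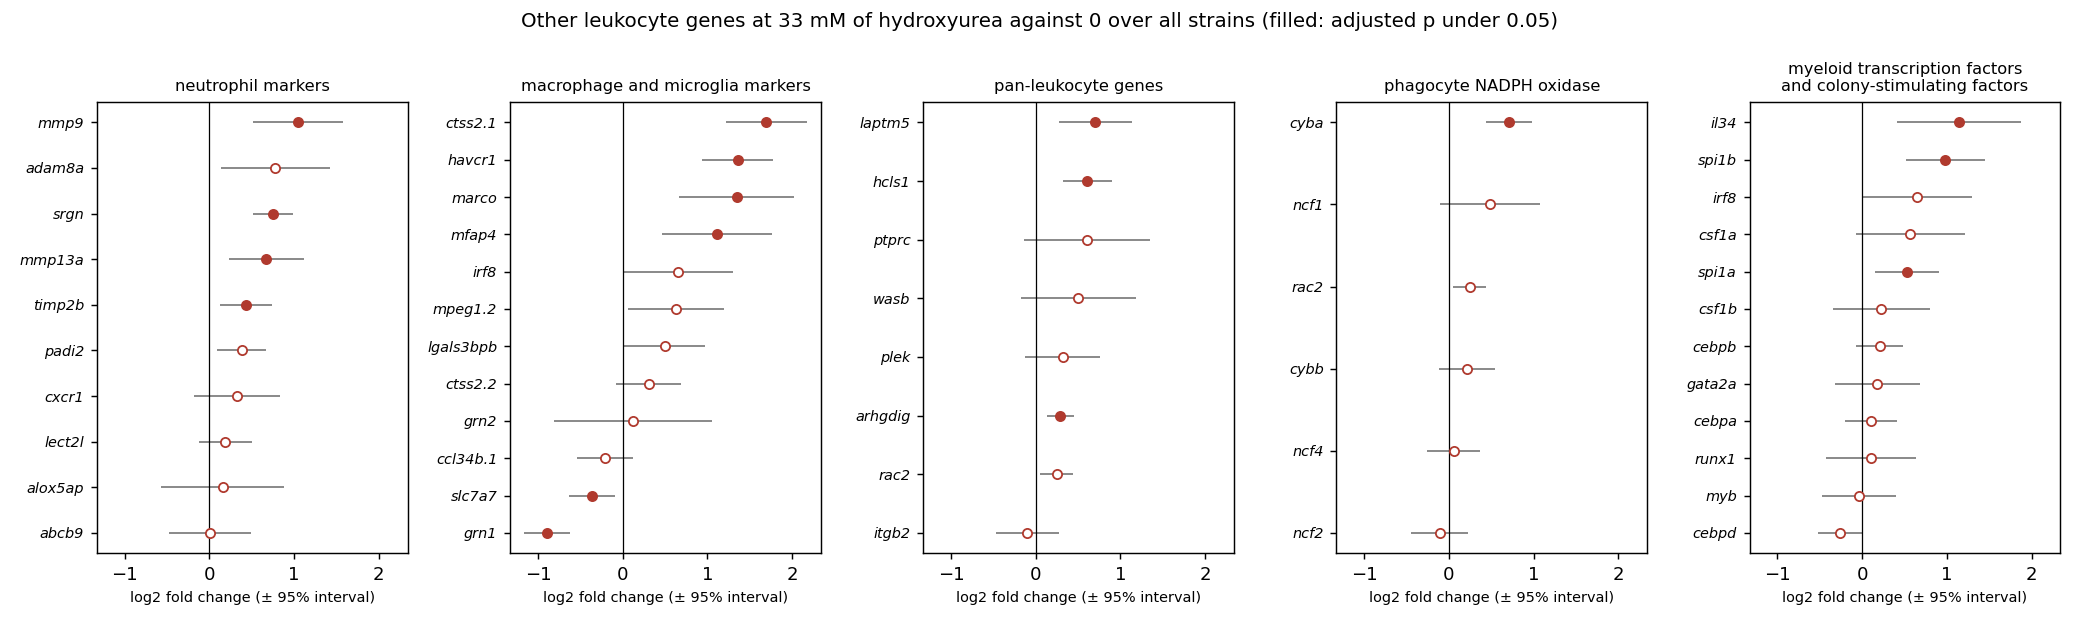
Log2 fold change at 33 mM of hydroxyurea against 0 mM over 4 strains (horizontal axes, with 95% intervals) for the other neutrophil, macrophage, pan-leukocyte, NADPH oxidase and myeloid regulator genes that had enough counts to be tested; filled points passed an adjusted p of 0.05. Filled points lie to the right of 0 apart from slc7a7 and grn1 in the macrophage list.

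Valproic acid, an antiepileptic drug that inhibits histone deacetylases, was read in the same way. At 20 µM 1 of the 6 markers, npsn, fell and none rose, and at 1 and 5 µM none was called over strains. Of 18192 genes tested 20.5% were called at 20 µM (11.5% lower), 2.37% at 5 µM and 0.0055% at 1 µM. The median log2 fold change of the 6 markers was -0.35 at 20 µM, beside 0.09 for all genes. At an unadjusted p under 0.05, npsn, coro1a and mpeg1.1 were lower and lyz was higher (0.31 on the log2 scale) at 5 µM, and mpeg1.1 was lower at 1 µM. Their adjusted p was 0.249 to 0.369. The share of all genes under that unadjusted threshold is not given here, so these are no finding.

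The neutrophil gene npsn had 4.06, 19.3 and 35.0 CPM as lowest, median and highest values in 40 larvae at 20 µM, against 10.0, 24.9 and 59.7 CPM in 40 larvae at 0 µM. The groups overlapped in every strain but 11 exposed larvae lay below all untreated larvae of their strain and none lay above. The difference on the log2 scale was -0.43 (SE 0.15, adjusted p = 0.0256). Means along the doses were 25.4, 21.1, 19.9 and 18.7 CPM at 0, 1, 5 and 20 µM, and no step between neighbouring doses passed the test (0.055% of genes called between 1 and 5 µM and 15.3% between 5 and 20 µM). In WIK, 5 of 8 larvae at 20 µM lay below every untreated larva, with 4.06 to 19.4 CPM (median 13.4) at 20 µM against 17.9 to 35.7 CPM (median 24.7) at 0 µM. The log2 fold change there was -0.99 (SE 0.33, adjusted p = 0.0315), where 12.1% of genes were called. The estimates in the other strains lay between -0.51 in AB and 0.05 in TU. Over strains the npsn call was lost without WIK (-0.34, adjusted p = 0.185), without AB or RW (adjusted p 0.0821 and 0.0994) and with total count as a covariate (-0.38, adjusted p = 0.0768).

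The other neutrophil markers did not change with valproic acid past the threshold. For lyz the lowest, median and highest values were 11.8, 47.5 and 132 CPM at 20 µM, against 17.2, 56.5 and 134 CPM at 0 µM, with a 95% interval of -0.29 to 0.28 around a log2 fold change of -0.00. For mpx the interval was -0.46 to 0.54 around 0.04. The pan-leukocyte genes lcp1 (-0.47, SE 0.19, adjusted p = 0.0717) and coro1a (-0.46, SE 0.19, adjusted p = 0.0785) lay just outside the threshold, and without TU both were called (-0.66 and -0.79), as was mpeg1.1 (-0.66, adjusted p = 0.0457). For lcp1 the larvae at 20 µM averaged 8.74 ± 6.51 CPM, against 12.3 ± 7.47 CPM at 0 µM, and for coro1a 10.4 ± 6.82 CPM, against 14.9 ± 8.89 CPM.

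Whether the response to valproic acid differed between strains was at the edge of the test for coro1a and mpeg1.1. The strain by dose interaction had an adjusted p of 0.0487 for coro1a and 0.0484 for mpeg1.1, close to the threshold, in a test in which 13.1% of all genes were called. Both calls were lost with total count as a covariate (0.102 and 0.143) and with DESeq2 size factors (0.0528 and 0.0598), and that of mpeg1.1 also without larvae under 0.5 times the median depth (0.0595). For coro1a the log2 fold changes at 20 µM were -1.36 in PET, -0.98 in RW, -0.83 in WIK, -0.07 in AB and 0.53 in TU. None of these was called within its strain, and the lowest adjusted p was 0.0710 in PET, where 6.77% of genes were called, beside 6.67% in RW, 5.8% in AB and 6.94% in TU. In PET coro1a had 0 to 7.21 CPM (median 2.57) at 20 µM, with 3 of 8 larvae at no count, against 1.61 to 18.9 CPM (median 8.02) at 0 µM. In TU it had 1.55 to 21.5 CPM (median 13.1) at 20 µM, with 4 of 8 larvae above every untreated one, against 4.12 to 15.4 CPM (median 8.09) at 0 µM.

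The macrophage gene mpeg1.1 fell in PET at the lower doses. Its median in PET was 11.2, 1.11, 0.179 and 3.14 CPM at 0, 1, 5 and 20 µM, and its highest value 21.2, 11.8, 6.36 and 9.93 CPM. No untreated PET larva lacked mpeg1.1 counts, whereas 4, 4 and 2 of 8 larvae did at 1, 5 and 20 µM. The log2 fold change was -1.92 (SE 0.58, adjusted p = 0.0220) at 1 µM, -2.44 (SE 0.62, adjusted p = 0.00485) at 5 µM and -1.64 (SE 0.57, adjusted p = 0.0632) at 20 µM. In PET 9.51% of genes were called at 1 µM and 7.7% at 5 µM. In the other strains no marker was called at 1 µM, where 0.0427% of genes were called in AB and 0.00475% each in RW, TU and WIK, or at 5 µM, where it was 0.00949% in AB, 0.0427% in RW, 0.199% in TU and 0.0902% in WIK. The PET libraries were also shallower when exposed, with median total counts of 1557113, 960618.5, 727935.5 and 1018274.5 at 0, 1, 5 and 20 µM, and a count of 0 allows up to 3 counts. Larvae under 0.5 times the median depth of the experiment made up 6, 6 and 7 of the 8 PET larvae at 1, 5 and 20 µM, and none at 0 µM. Without them the log2 fold change was -0.62 (adjusted p = 0.687) at 1 µM and -2.05 (adjusted p = 0.0896) at 5 µM, with 2 exposed larvae left at each. With total count as a covariate it was -1.71 (adjusted p = 0.0692) at 1 µM and -2.23 (adjusted p = 0.0258) at 5 µM. In TU mpeg1.1 had 3.10 to 19.8 CPM (median 15.2) at 20 µM, against 0.687 to 14.6 CPM (median 7.12) at 0 µM (log2 fold change 0.98, adjusted p = 0.273). AB, RW and WIK had estimates between -0.52 and 0.42 over the 3 doses.

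**Figure D4:**
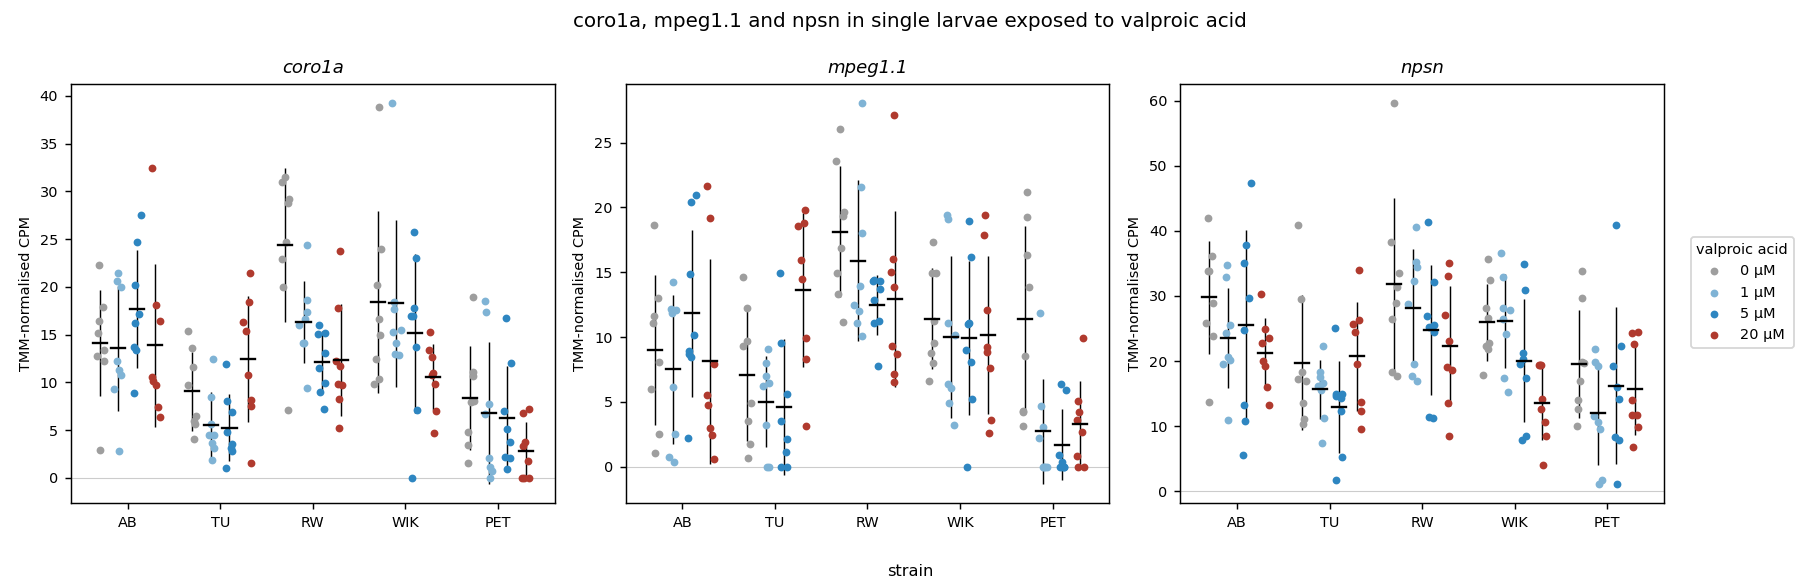
TMM-normalised CPM of coro1a, mpeg1.1 and npsn (vertical axes) in single larvae of 5 strains, with the doses of valproic acid from 0 to 20 µM side by side within each strain. Points are larvae, bars the group mean and lines ± SD. For mpeg1.1, 6, 6 and 4 of 8 PET larvae at 1, 5 and 20 µM lie below all untreated PET larvae, whose libraries were deeper. For npsn, 11 of 40 larvae at 20 µM lie below all untreated larvae of their strain.

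Macrophage genes went in both directions under valproic acid too. Of 23 genes named 21 were found in the data and 16 were tested, of which 3 rose and 5 fell at 20 µM. At this dose 8.99% of all genes tested were higher and 11.5% lower, and the list counts are a description beside these shares. Levels of grn2 were 1.03 ± 1.43 CPM at 20 µM and 4.83 ± 4.97 CPM at 0 µM (log2 fold change -2.31, adjusted p = 1.75e-08). The grn2 mean at 20 µM lay below the 1.32 CPM that a count of 0 allows at the median depth. Levels of cd74b, the invariant chain of antigen presentation, were 3.06 ± 2.91 and 10.5 ± 7.21 CPM at these doses (-1.69, adjusted p = 5.82e-07). The gene mfap4 (0.68, adjusted p = 0.0311) and havcr1 (0.68, adjusted p = 0.0178) rose. Of 12 tested neutrophil genes 1 rose, timp2b (0.69, adjusted p = 6.34e-06), and of 12 pan-leukocyte and 6 NADPH oxidase genes none was called. Among 13 tested myeloid regulators cebpb (1.11, adjusted p = 2.83e-09) and cebpa (0.52, adjusted p = 0.00678) rose and cebpd (-0.50, adjusted p = 7.56e-04) fell. These 3 factors are also expressed in liver, and the liver gene fabp10a stood at 101 ± 77.4 CPM at 20 µM and 1034 ± 563 CPM at 0 µM. Other tissues moved as well: of 7 larval tissue genes 5 fell and 1 rose, 4 of 8 tested erythroid genes and 3 of 7 tested inflammation genes rose, and cpa5 averaged 67.4 ± 31.7 CPM at 20 µM and 925 ± 436 CPM at 0 µM (log2 fold change -3.82). The part of these changes in the leukocyte markers was not tested.

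Warfarin prevents blood clotting by blocking the recycling of vitamin K. At 300 µM mpx rose and the other 5 markers were not called, and at 150 µM none was called. Of 13482 genes tested 9.6% were called at 300 µM (4.64% higher) and 3.18% at 150 µM. The lowest, median and highest mpx levels were 0, 5.04 and 15.1 CPM in 25 larvae at 300 µM, against 0, 2.29 and 7.95 CPM in 25 larvae at 0 µM. The groups overlapped, and 10 exposed larvae lay above every untreated larva of their strain. This gave a log2 fold change of 0.95 (SE 0.32, adjusted p = 0.0442), near the threshold, and counts were few, at a median of 10 per larva at 300 µM and of 3 at 0 µM.

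Taken strain by strain, mpx was called in AB alone. There it had 2.97 to 15.1 CPM (median 8.21) in 7 larvae at 300 µM, with 5 of them above every untreated larva, against 0 to 4.40 CPM (median 2.29) in 7 larvae at 0 µM. The log2 fold change in AB was 2.06 (SE 0.58, adjusted p = 0.0271), where 2.7% of genes were called. It was 1.09 in TU, 0.48 in PET and -0.22 in RW, none called (3.03% of genes in TU, 0.884% in PET and 1.91% in RW), and the strain by dose interaction had an adjusted p of 0.780 (0.546% of genes called), so that a difference between the strains was not shown. In RW the 5 larvae at 300 µM had 0.421 to 4.96 CPM and the 5 at 0 µM had 0.803 to 4.08 CPM. Between 150 and 300 µM the mpx difference was 0.67 on the log2 scale (adjusted p = 0.467), where 1.25% of genes were called. Within strains at 150 µM no marker was called, where 0.391% of genes were called in AB, 0.465% in PET, 0.479% in RW and 0.735% in TU. Over strains the mpx call was lost without AB (log2 fold change 0.50, adjusted p = 0.587), without PET (1.17, adjusted p = 0.0536), without TU (0.92, adjusted p = 0.0815) and without larvae under 0.5 times the median depth (adjusted p = 0.0554). It was lost as well with total count as a covariate (adjusted p = 0.0825), with no filter on low counts (adjusted p = 0.0589) and with the larva number as a block (0.93, adjusted p = 0.0657). It was also lost without RW larva 1 or 2 at 0 µM or RW larva 2 at 300 µM (adjusted p 0.0512 to 0.0628). Single larvae of the other strains, AB among them, were not left out.

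The remaining markers were not called under warfarin. For lyz the larvae at 300 µM averaged 76.2 ± 29.6 CPM and those at 0 µM 77.2 ± 32.7 CPM, and the 95% interval of the log2 fold change was -0.25 to 0.27. The intervals were -0.17 to 0.41 for npsn, -0.48 to 0.22 for lcp1, -0.03 to 0.93 for coro1a and -0.19 to 0.81 for mpeg1.1. The last pair of intervals reached further from 0 than the others. For lyz at 300 µM, 8 of 25 larvae lay above and 6 below every untreated larva of their strain. In TU 4 of 6 lay below and none above, and in AB 4 of 7 lay above and 2 below. The strain by dose interaction of lyz was not called (adjusted p = 0.777, with 0.546% of genes called). Among the other neutrophil (8 tested), pan-leukocyte (6) and NADPH oxidase (6) genes none was called at 300 µM. Of 9 tested myeloid transcription factors and colony-stimulating factors 1 rose and none fell. Over all genes tested 4.64% were higher and 4.95% lower at this dose. Of 10 macrophage genes tested 3 fell, the chemokine gene ccl34b.1 (21.2 ± 8.12 CPM at 300 µM and 41.3 ± 13.8 CPM at 0 µM), lgals3bpb and grn1. At this dose 2 of 7 larval tissue genes fell, none of 6 tested erythroid and 5 tested inflammation genes was called, and cpa5 averaged 311 ± 132 CPM at 300 µM and 838 ± 185 CPM at 0 µM (log2 fold change -1.47). The part of these changes in mpx was not tested.

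**Figure D5:**
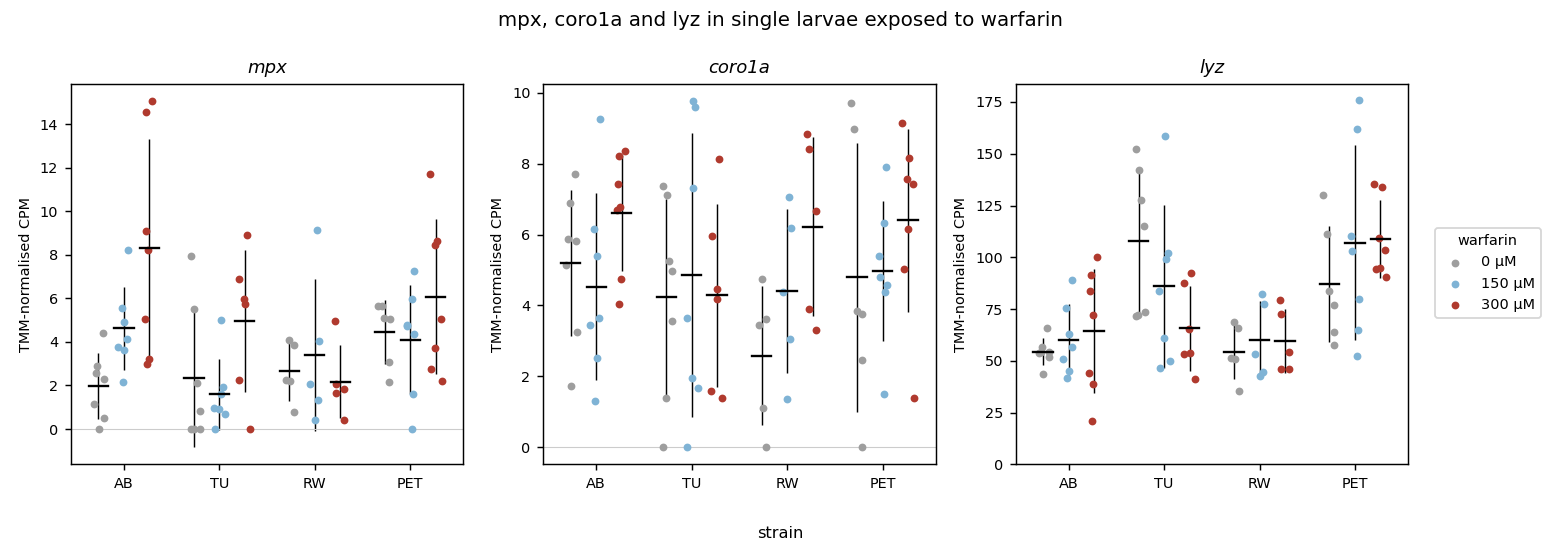
TMM-normalised CPM of mpx, coro1a and lyz (vertical axes) in single larvae of 4 strains, with warfarin at 0, 150 and 300 µM side by side within each strain. Points are larvae, bars the group mean and lines ± SD. The AB larvae at 300 µM reach 15.1 CPM of mpx where the untreated ones end at 4.40 CPM, and lyz overlaps between all doses.

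Set side by side at the highest dose, the log2 fold changes of the 6 markers were 1.41, -0.00 and 0.01 for lyz, 1.22, 0.04 and 0.95 for mpx, 0.36, -0.43 and 0.12 for npsn, 0.97, -0.47 and -0.13 for lcp1, 0.77, -0.46 and 0.45 for coro1a, and 0.20, -0.28 and 0.31 for mpeg1.1 under hydroxyurea, valproic acid and warfarin. No marker was called for more than 1 compound at its highest dose against 0 except mpx, which was called for hydroxyurea and warfarin. The compounds were tested in separate experiments, with separate untreated larvae and unrelated doses, and differences between compounds were not tested.

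Strains differed at 0 in the valproic acid experiment in many genes, some of the markers among them. Each strain was set against the mean of the others there, and RW larvae were higher in coro1a (log2 difference 1.05, adjusted p = 0.00171), mpeg1.1 (0.94, adjusted p = 0.0146) and lyz (0.77, adjusted p = 0.00247). In this test 24.4% of all genes were called for RW, 26.5% for PET, 23.6% for TU, 20.8% for WIK and 2.09% for AB. The number of markers called was not tested against these shares, and differences at 0 were not particular to the markers. PET was lower in coro1a (-0.92, adjusted p = 0.0220), TU lower in lyz (-0.71, adjusted p = 0.0139) and WIK higher in lcp1 (0.84, adjusted p = 0.0229). For coro1a the order at 0 µM was RW (24.4 ± 8.08 CPM), WIK (18.4 ± 9.57), AB (14.1 ± 5.57), TU (9.07 ± 4.13) and PET (8.34 ± 5.44), and for lyz it was RW (84.7 ± 33.4 CPM), AB (77.6 ± 24.7), PET (52.6 ± 22.1), WIK (41.6 ± 13.8) and TU (37.0 ± 17.4), with 8 larvae each. The ranges of neighbours in both orders overlapped. With total count as a covariate none of these 6 strain differences was called (adjusted p 0.0771 to 0.309).

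In the other experiments the order differed. Untreated TU larvae, lowest in lyz above, were highest in the warfarin experiment, at 108 ± 35.1 CPM beside 87.3 ± 28.0 in PET, 54.4 ± 6.58 in AB and 54.4 ± 13.4 in RW (TU against the others 0.78, adjusted p = 0.00138, with 6.3% of genes called). In the hydroxyurea experiment none of the 6 markers was called for a strain at 0 mM, and the lowest adjusted p was 0.0540 for lyz in AB. There 12% of all genes were called for AB, 3.39% for PET, 2.93% for TU and 0.651% for RW. In the warfarin larvae at 0 µM mpx had too few counts to be tested.

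From larva to larva the markers' levels were compared as a description. With the mean of each strain, dose and compound group removed, Pearson r over the 340 larvae lay between 0.07 (npsn and mpeg1.1) and 0.39 (lyz and npsn) for the 15 pairs. Among 13129 genes searched, lyz was the gene most like npsn, followed by fbp1a, CU639469.1, col9a1a and med23 (r 0.27 to 0.29). In the other direction npsn ranked 121 for lyz, behind genes led by si:dkey-151g10.6, atp5pd, rpl27, eef1b2 and uqcrq (r 0.47). The genes most like the other markers had r of at most 0.40, with hmgb2a, cd164, clcn7, ipo7 and cldn1 for mpx, tbc1d17, atoh8, grk7a, isca2 and soul3 for lcp1, selenoh, ywhaba, gstm.1, papola and arpc2 for coro1a, and entr1, CT573383.1, igf2a, eif3ba and rab1ab for mpeg1.1. All of these values come from shared libraries, and the markers' own r with total count was 0.07 to 0.34, and r of this size is no finding.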

How the data were processed

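Single whole larvae at 5 dpf were profiled by sequencing transcript 3′ ends (Lasy-Seq), with 150-bp paired-end reads. The authors deposited 1 table of estimated counts for 31658 genes and 340 larvae, and the aligner and counter are not given in the sources used here. The submitters' processing notes name GRCz11 and Seurat 5.1.0 with no role. A total of 52 values, in 34 genes and 24 larvae, were not whole, so counts were rounded before testing. Groups were taken from the labels, and each compound was fitted separately in edgeR 4.0.16 (R 4.3.3, limma 3.58.1) with TMM scaling, filterByExpr (minimum count 10, minimum total 15) and the quasi-likelihood test, with Benjamini-Hochberg adjustment over all genes tested and a threshold of 0.05. Doses were tested with strain as a covariate. Strain by dose groups gave the values within strains and the interaction, which was 1 test over all doses together. The SE was the log2 fold change over the root of F, and the interval 95%. Depth ran over 124136 to 14186334 counts per larva, and low counts limit mpx, coro1a and mpeg1.1 most.

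The 6 markers and the gene lists were chosen with earlier results of these data known, so their counts are descriptions. In each list and comparison up to 2 called genes per direction with the largest change and the 2 with the highest mean level were eligible to be named, and for likeness the 5 genes with the highest r. Likeness was Pearson r of log2 CPM (prior count 2) after removal of group means. Alternatives were DESeq2 1.42.0 and its size factors, no filter, total count as a covariate, larvae under 0.5 times the median depth of their experiment left out (71 larvae), the larva number as a block, and leaving out strains. Single larvae were left out in turn only in groups of at most 5, beside AB larva 5 at 0 mM of hydroxyurea. The edgeR steps were also run on simulated counts drawn from the fitted spread, without outlying larvae or clutch effects. No outcome of that run is given here, and it is no support for the calls. No sequence was used here.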

Additional observations from a re-analysis of the deposited data

Results flagged for a closer look

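In 33 of the 288 groups of a marker, strain and dose that were tested, 1 larva stood apart from the others by the gap to its nearest neighbour on the log2 scale. About 14.4 are given by chance at 1 in 20 groups. In 30 of them the larva was low and in 3 high. The high ones were npsn at 170 CPM in AB larva 5 at 0 mM of hydroxyurea (others at most 22.6 CPM), lyz at 83.6 CPM in PET larva 4 at 1 µM of valproic acid (others at most 36.7 CPM) and coro1a at 39.3 CPM in WIK larva 7 at 1 µM of valproic acid (others at most 18.4 CPM).

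Of the low values in the valproic acid experiment, several came from the same larvae. AB larva 5 at 5 µM had 0 CPM of mpx, 36.8 CPM of lyz and 2.23 CPM of mpeg1.1. WIK larva 8 at 5 µM, with 189169 counts in all, had 0 CPM of lcp1, coro1a and mpeg1.1. TU larva 5 at 20 µM had 0 CPM of lcp1 and 1.55 CPM of coro1a, and RW larva 3 at 0 µM had 1.69 CPM of lcp1 and 7.09 CPM of coro1a. The other low values for mpx were 0.508 CPM in AB larva 1 and 1.40 CPM in WIK larva 6, both at 0 µM. The other low value for lyz was 35.6 CPM in AB larva 8 at 20 µM. For lcp1 they were 3.73 CPM in TU larva 3 at 1 µM and 0 CPM in PET larva 2 at 5 µM and in PET larva 2 at 20 µM. For coro1a they were 2.84 CPM in AB larva 2 at 1 µM and 2.97 CPM in AB larva 6 at 0 µM. The remaining one was 7.74 CPM of mpeg1.1 in RW larva 1 at 5 µM.

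In the hydroxyurea experiment TU larva 2 at 1.3 mM, the shallowest library with 124136 counts, had 0 CPM of lcp1 and coro1a. Low values of lcp1 were also 0 CPM in AB larva 3 at 6.6 mM and in AB larva 1 at 33 mM. For coro1a they were 0 CPM in AB larva 7 and 1.26 CPM in PET larva 1, both at 0 mM. PET larva 7 at 1.3 mM had 8.74 CPM of npsn, and PET larva 4 at 33 mM had 3.63 CPM of mpx. In the warfarin experiment TU larva 5 at 150 µM had 7.27 CPM of npsn, and coro1a stood at 1.50 CPM in PET larva 3 at 150 µM and 1.38 CPM in PET larva 1 at 300 µM.

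The interaction term of edgeR's quasi-likelihood test for strain and valproic acid dose was just past the threshold for coro1a (adjusted p = 0.0487) and mpeg1.1 (adjusted p = 0.0484). Both were lost with total count as a covariate (0.102 and 0.143) and with DESeq2 size factors (0.0528 and 0.0598).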

How the results depend on the processing

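Of 982 values recomputed for 65 results, 887 were kept, and the median of all genes moved by at most 0.0538 (log2). A fold change was kept if its direction and its side of the threshold stayed, and an interaction if its side stayed. A number of markers or genes called was kept if it stayed within a set ratio of the main number, so some of these did change. Over strains, the rise of lyz, mpx and lcp1 at 33 mM of hydroxyurea against 0 mM was called under every alternative run. For coro1a it was lost without TU (0.68), for npsn a rise was called without larvae under 0.5 times the median depth (0.74) and without AB (0.67), and mpeg1.1 was at -0.12 without TU. Both of these npsn settings leave out AB larva 5 at 0 mM, the larva with 170 CPM of npsn. The depth setting also leaves out 6 of 7 AB larvae at 33 mM. Without PET 3 in place of 5 markers were called for 33 against 6.6 mM, with npsn (0.55) and mpx (0.73) lost. For 33 against 0 mM, 2304 to 3719 of all genes were called with 1 strain left out, in place of 3432.

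At 20 µM of valproic acid the number of markers called was 1, and became 2 with DESeq2 and without shallow larvae, 0 with total count as a covariate and without AB, RW or WIK, and 4 without TU. Over all genes 2615 to 4540 were called with 1 strain left out, in place of 3721. Shares of all genes under the other settings are not given here, so the counts of markers are a description. For npsn the value was -0.38 with the covariate, -0.41 without AB, -0.42 without RW and -0.34 without WIK, none called. Called values appeared for lcp1 without shallow larvae (-0.55) and without TU (-0.66), for coro1a with DESeq2 (-0.44) and without TU (-0.79), and for mpeg1.1 without TU (-0.66). Uncalled values changed sign for mpx without shallow larvae (-0.0258), PET (-0.0480) or TU (-0.25), for mpeg1.1 without PET (0.0526), and for lyz with DESeq2 size factors (0.0164), the covariate (0.0571), DESeq2 (0.0121) and without shallow larvae (0.0710), PET (0.0644), RW (0.0738) or WIK (0.00512). Interactions called were 0 in place of 2 with DESeq2 size factors and with the covariate. With the covariate, 1 in place of 3 changes within strains and 0 in place of 6 strain differences at 0 µM were called. In hydroxyurea larvae at 0 mM 2 strain differences were called with the covariate and 3 with no filter, in place of 0.

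At 300 µM of warfarin mpx gave 0.97 with no filter, 0.90 with the covariate, 0.94 without shallow larvae, 0.50 without AB, 1.17 without PET and 0.92 without TU, so that 0 markers were called in each. Genes called were 672 without AB, in place of 1294. Uncalled lyz was -0.0337 with the covariate, -0.0922 without AB, -0.0994 without PET and -0.0268 without RW, and lcp1 was 0.0212 without TU. Without shallow larvae 2 in place of 1 strain differences at 0 µM were called.

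Single larvae were left out only in groups of at most 5, beside AB larva 5 at 0 mM of hydroxyurea. These groups were RW at 0 mM and PET at 33 mM of hydroxyurea, and RW at each dose of warfarin. No valproic acid larva and no warfarin larva of AB, PET or TU was left out, so the ranges do not cover all larvae. Leaving out 1 larva gave 4 to 5 markers called at 33 mM, beside 3278 to 3419 of all genes. It gave npsn between 0.31 and 0.74, and 0 to 1 strain differences at 0 mM. For warfarin at 300 µM it gave 0 to 1 markers called, beside 1227 to 1306 of all genes. There mpx lay between 0.92 and 1.02 and lyz between -0.0157 and 0.0271 (below 0 in 3 of 15 cases). Removal of AB larva 5 at 0 mM was chosen after seeing the data.

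Larvae with the same number were not alike (median r of their deviations 0.0020 in the valproic acid larvae, 0.0012 with hydroxyurea and 0.0049 with warfarin), so the numbers did not pair them. With the larva number as a replicate block mpx at 300 µM of warfarin was 0.93 (adjusted p = 0.0657), with 0 markers called, mpx in PET at 33 mM was 1.49 (adjusted p = 0.0587), and no other call of those listed was lost. Low depth limits mpx, coro1a and mpeg1.1, and strain and clutch cannot be told apart.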
